A study of Saccharomyces cerevisiae with 10 samples.

Results

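The protein-bound stretches described here lie on the H/ACA box guide snoRNAs of Saccharomyces cerevisiae, small nucleolar RNAs that direct the conversion of uridine to pseudouridine in ribosomal RNA and in the U2 spliceosomal RNA. A stretch, called a cluster in the deposited lists, was taken when it overlapped 1 of 27 named H/ACA guide genes of the R64 genome by 1 nt or more, strand taken into account. This gave 721 of the 185005 clusters in the series. SNR10 and SNR30, H/ACA RNAs of rRNA processing, were not members.

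The clusters came from gPAR-CLIP, in which cells take up 4-thiouracil, ultraviolet light joins the labelled uridines to bound protein, and the protected RNA pieces are sequenced without selecting any single protein. All 10 libraries were made from the wild-type strain BY4742, labelled MATa and carrying his3-delta-1 and leu2-delta-0 together with lys2-delta-0 and ura3-delta-0. Every culture was grown in synthetic defined (SD) medium at 30 °C with 200 µM 4-thiouracil and was irradiated 4 times with 150 mJ/cm2 at 365 nm. The 5 groups of 2 replicates were polyA RNA after 2 h without glucose, polyA RNA after 2 h without nitrogen, total RNA of log phase from the light fraction of a sucrose gradient, total RNA of log phase from its heavy fraction, and polyA RNA of log phase. The first 2 groups and the last were also taken from the light fraction, which holds particles lighter than the 40S ribosomal subunit. PolyA here means RNA held by oligo(dT) beads, and all proteins were biotinylated for capture on streptavidin.

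Each group was deposited as 1 list that pools both replicates, with positions and no read counts. No spread between replicates can be given, no difference was tested, and intervals below cover the counting of clusters only. More RNA molecules and more protein contact per molecule cannot be told apart in these lists. The depth in reads is unknown. The lists held 33345 clusters for glucose starvation, 38936 for nitrogen starvation, 51574 for light total RNA, 115 for heavy total RNA and 61035 for log-phase polyA RNA. Every cluster in the 5 lists contained at least 1 T, the DNA letter of the base that carries the label.

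An H/ACA guide RNA folds into 2 hairpins. Between them lies the hinge with the H box (ANANNA), and after the second hairpin comes the tail box, ACA or sometimes ATA, a few bases before the 3′ end. An internal loop in a hairpin, the guide pocket, pairs with rRNA on both sides of the target uridine, and the pseudouridine synthase Cbf5, with Nhp2, Nop10 and Gar1, modifies that uridine. In yeast most of these RNAs are transcribed by RNA polymerase II from genes of their own, and their 3′ ends are formed with the Nrd1, Nab3 and Sen1 complex and trimmed by the nuclear exosome. PolyA tails are added to precursors and to RNAs marked for trimming by the Trf4 (Pap2) and Trf5 complexes.

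The following 4 RNAs of up to 300 nt had the most bases covered in all 4 light lists, and they show where the lasting stretches lie. Sequences in this report are from RefSeq for the R64 build and run 5′ to 3′, and all are written in DNA letters. Capitals mark bases covered in glucose-starved, nitrogen-starved, light total and log-phase polyA RNA alike.
SNR82, chrVII:316788-317055, plus strand: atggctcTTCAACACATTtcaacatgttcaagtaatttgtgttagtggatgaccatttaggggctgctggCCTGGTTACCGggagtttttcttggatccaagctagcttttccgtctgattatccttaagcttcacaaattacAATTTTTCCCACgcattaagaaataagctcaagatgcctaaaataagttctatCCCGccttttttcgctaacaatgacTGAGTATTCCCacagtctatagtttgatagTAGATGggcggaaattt
SNR191, chrXIV:721938-722211, minus strand: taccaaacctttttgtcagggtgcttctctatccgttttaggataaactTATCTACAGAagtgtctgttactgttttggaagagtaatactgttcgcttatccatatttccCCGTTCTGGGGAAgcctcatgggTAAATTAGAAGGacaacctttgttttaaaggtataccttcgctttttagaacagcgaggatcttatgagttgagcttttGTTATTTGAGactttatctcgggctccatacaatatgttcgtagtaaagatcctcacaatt
SNR11, chrXIII:652275-652532, plus strand: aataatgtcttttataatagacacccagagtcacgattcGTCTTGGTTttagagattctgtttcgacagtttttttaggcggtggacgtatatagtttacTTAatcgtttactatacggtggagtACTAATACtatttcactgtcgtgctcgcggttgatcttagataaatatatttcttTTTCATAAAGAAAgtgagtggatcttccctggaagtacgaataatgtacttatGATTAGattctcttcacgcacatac
SNR9, chrXV:407948-408134, minus strand: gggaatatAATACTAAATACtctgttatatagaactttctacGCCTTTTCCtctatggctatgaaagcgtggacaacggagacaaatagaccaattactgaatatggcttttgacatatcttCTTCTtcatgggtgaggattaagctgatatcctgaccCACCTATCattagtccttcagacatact

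In SNR82, which guides positions 1110, 2349 and 2351 of 25S rRNA, 55 bases in 6 runs were common to the lists. SNR191, a guide of helix 69 of 25S rRNA, had 45 in 4 runs, SNR11 had 39 in 5 runs, and SNR9 had 34 in 4 runs.

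A second pair of RNAs is shown for its guide pockets. Capitals mark the arms that pair with the target, as found by a search for complementary bases at the proper distance before the H box or tail box. SNR81 guides position 42 of U2 through its first hairpin. SNR5 guides positions 1124 and 1004 of 25S rRNA through its first and second hairpins.
SNR81, chrXV:234346-234546, plus strand: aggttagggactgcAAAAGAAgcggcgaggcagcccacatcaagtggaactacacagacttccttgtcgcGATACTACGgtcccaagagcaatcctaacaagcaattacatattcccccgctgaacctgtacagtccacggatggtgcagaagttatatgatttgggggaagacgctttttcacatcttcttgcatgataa
SNR5, chrXV:842403-842606, plus strand: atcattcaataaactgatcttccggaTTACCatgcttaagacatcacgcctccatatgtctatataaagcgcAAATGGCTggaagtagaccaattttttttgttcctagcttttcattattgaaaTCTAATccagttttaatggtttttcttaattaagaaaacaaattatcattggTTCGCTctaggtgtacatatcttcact

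Beyond the 3′ end of the mature RNA, stretches were seen most often after SNR33 and SNR34. Those covered by at least 10 nt in log-phase polyA RNA are printed because they lie outside the annotated RNA, where a longer 3′ form would extend.
SNR33 3′ flank, nt 2 to 26 after the gene, chrIII:142338-142362, minus strand: ATTTGCAAAACTTTTTATTTTATGT
SNR33 3′ flank, nt 57 to 66 after the gene, chrIII:142298-142307, minus strand: TTTTTCTTAT
SNR34 3′ flank, nt 3 to 21 after the gene, chrXII:899385-899403, plus strand: CATATATTTACGTACTGTC
SNR34 3′ flank, nt 56 to 65 after the gene, chrXII:899438-899447, plus strand: ATATTGAAAC
SNR34 3′ flank, nt 68 to 77 after the gene, chrXII:899450-899459, plus strand: ACAAATTTAG

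All 27 RNAs carried a cluster in every light list. They held 176 clusters in glucose-starved polyA RNA (0.528% of that list, 95% Wilson interval 0.456 to 0.611) and 187 in nitrogen-starved polyA RNA (0.480%, 0.416 to 0.554). They held 213 in light total RNA (0.413%, 0.361 to 0.472) and 145 in log-phase polyA RNA (0.238%, 0.202 to 0.279). The heavy list had 0 of its 115 clusters there, which allows a share of up to 2.61% by the limit of 3 counts, with a Wilson upper limit of 3.23%, so it says little about these RNAs.

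Clusters covered 31.9% of the 7032 nt of the 27 RNAs in the glucose list, 35.0% in the nitrogen list, 37.6% in light total RNA and 24.7% in log-phase polyA RNA. Of their 2476 T, 32.7% lay inside clusters in the glucose list, 33.2% in the nitrogen list, 35.3% in light total RNA and 26.3% in log-phase polyA RNA. The highest values were 54.4% for SNR35 in the glucose list, 54.7% for SNR161 in the nitrogen list, 50.2% for SNR81 in light total RNA and 42.2% for SNR82 in log-phase polyA RNA. The lowest were 16.3% for SNR83 in the glucose list, 17.9% for SNR8 in the nitrogen list, 21.7% for SNR34 in light total RNA and 10.4% for SNR81 in log-phase polyA RNA. The RNA with the least cover in log-phase polyA RNA was therefore the one with the most in light total RNA.

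**Figure D1:**
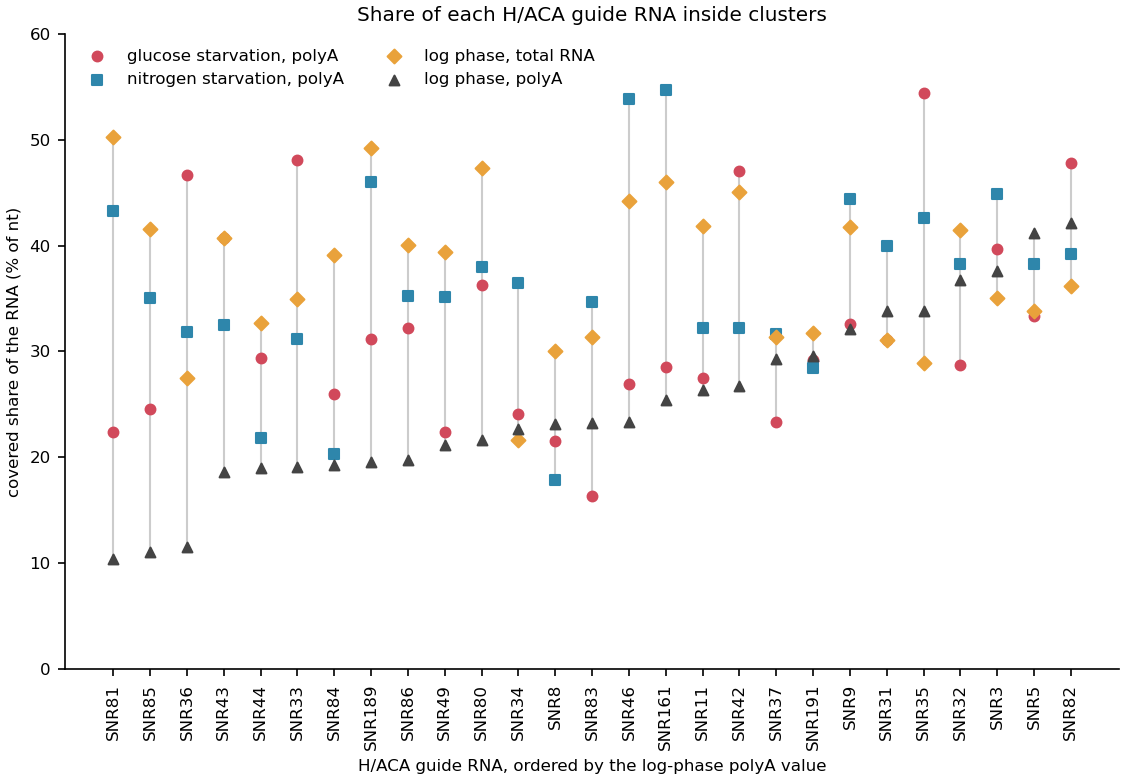
Share of each of the 27 H/ACA guide RNAs inside clusters (y axis, percent of its nucleotides), with 1 point per list and the RNAs ordered by log-phase polyA RNA. The log-phase polyA points lie lowest for SNR81, SNR85 and SNR36, at 10.4%, 11.1% and 11.5%, and highest of the 4 for SNR5, at 41.2%.

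The 5 RNAs with the largest covered share in light total RNA were SNR81 (50.2%), SNR189 (49.2%), SNR80 (47.4%), SNR161 (46%) and SNR42 (45.0%). SNR80 and SNR189 guide both 18S and 25S rRNA, SNR161 guides 18S rRNA and SNR42 guides 25S rRNA. The 5 with the smallest were SNR34 (21.7%), SNR36 (27.5%), SNR35 (28.9%), SNR8 (30.0%) and SNR31 (31.1%). SNR35 stood at the other end in the glucose list, where it had 54.4% against 33.8% in log-phase polyA RNA. SNR35 guides position 1191 of 18S rRNA, a base that is modified further after the pseudouridine is made.

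Base composition differed between lists, and it moved with the comparison of total and polyA RNA. Over whole lists, G made up 6.88% of clustered bases in the glucose list, 5.63% in the nitrogen list, 16.4% in light total RNA and 6.81% in log-phase polyA RNA. On the H/ACA guides G made up 17% in the glucose list, 17.9% in the nitrogen list, 17.8% in light total RNA and 15.3% in log-phase polyA RNA, against 19.3% in the RNAs themselves. The median cluster on the guides was 11 nt wide in light total RNA and 12 nt wide in each polyA list. The part of base composition in the results was not tested. In a search for copies elsewhere in the genome of at least 30 nt with 90% identity, SNR86 alone had a match, which was 30 nt long. Shorter copies were not searched, and the part of reads that map to several places was not tested.

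The position of clusters along the RNA was read against the boxes. Both boxes were found in 21 RNAs. No tail box was found in SNR44, SNR82, SNR85 and SNR86, and no H box in SNR32 and SNR161. Of the RNAs with a tail box, 17 had ACA and 6 had ATA.

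Both hairpins were covered alike. In hairpin 1, 34.0% of T lay in clusters in the glucose list, 33.0% in the nitrogen list, 36.1% in light total RNA and 27% in log-phase polyA RNA. In hairpin 2 it was 33.1% in the glucose list, 33.9% in the nitrogen list, 35.5% in light total RNA and 27.2% in log-phase polyA RNA. RNA by RNA, hairpin 1 had the larger share of its T covered in 11 of 21 RNAs in the glucose list, in 10 in the nitrogen list, in 9 in light total RNA and in 10 in log-phase polyA RNA. Neither hairpin had the larger share in more than 12 of 21 RNAs in any list.

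The H boxes held 21 T in all, and the tail with its box held 46. Clusters took in 7 T of the H boxes in the glucose list, 11 in the nitrogen list, 6 in light total RNA and 6 in log-phase polyA RNA. At least 1 base of the H box was covered in 11 of 21 RNAs in the glucose list, 13 in the nitrogen list, 10 in light total RNA and 5 in log-phase polyA RNA. With the H box taken nearest the middle of the RNA, its T were covered at 57.1% in the glucose list in place of 33.3%, at 66.7% in the nitrogen list in place of 52.4%, at 33.3% in light total RNA in place of 28.6% and at 47.6% in log-phase polyA RNA in place of 28.6%. Both ways of choosing took the same H box in 10 of 21 RNAs, so the cover of the hinge depends on that choice. For the tail, 17.4% of T were covered in the glucose list, 23.9% in the nitrogen list, 34.8% in light total RNA and 13% in log-phase polyA RNA. In SNR3 a stretch from nt 74 to nt 103 ran from hairpin 1 into the H box, which began at nt 100. Its 18 bases common to all 4 lists lay in hairpin 1, before the box.

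**Figure D2:**
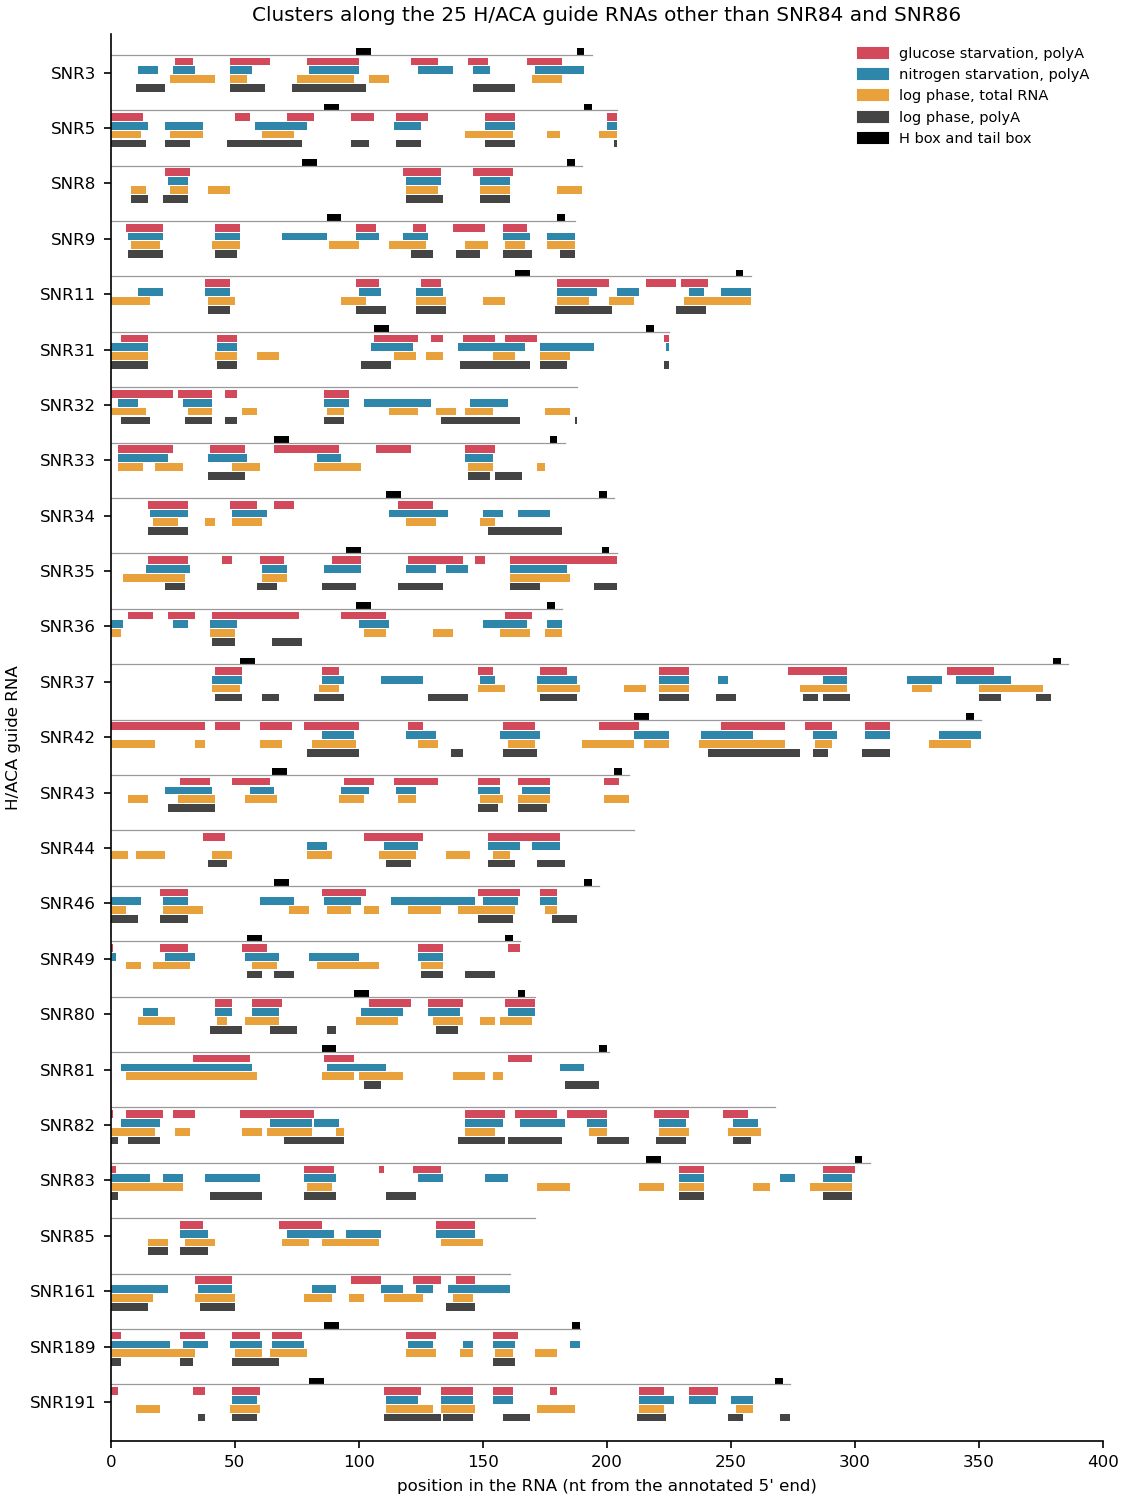
Clusters along the 25 H/ACA guide RNAs without SNR84 and SNR86, drawn from the annotated 5′ end (x axis, nt), with 1 coloured row per list and black blocks for the H box and tail box where both were found. In SNR8 all 4 rows share the stretches at nt 119 to 134 and nt 147 to 162, while in SNR81 the rows of nitrogen-starved and light total RNA fill most of nt 5 to 59.

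Predicted structure separated the bases more than the hairpins did. Each hairpin of the 21 RNAs was folded on its own at 37 °C. Terminal loops held 222 T, of which 57.7% were covered in the glucose list, 55.0% in the nitrogen list, 50.5% in light total RNA and 37.8% in log-phase polyA RNA. Other unpaired T, 614 in number, were covered at 35.2% in the glucose list, 39.9% in the nitrogen list, 44.3% in light total RNA and 29.0% in log-phase polyA RNA. The 923 T predicted to be paired were covered at 25.7% in the glucose list, 24.1% in the nitrogen list, 26.3% in light total RNA and 22.6% in log-phase polyA RNA.

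Counted by RNA, unpaired T were covered at a higher rate than paired T in 19 of 21 RNAs in the glucose list and in 21 of 21 in the nitrogen list. The count was 18 of 21 in light total RNA and 16 of 21 in log-phase polyA RNA. Terminal loop T alone were covered at a higher rate than paired T in 18 RNAs in the glucose list and 17 in the nitrogen list. The count was 17 in light total RNA and only 12 of 21 in log-phase polyA RNA. Bases covered in all 4 lists had the same order, at 24.8% of T in terminal loops, 12.9% of other unpaired T and 8.23% of paired T. They are a part of the covered bases counted above, so this order is no separate support.

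**Figure D3:**
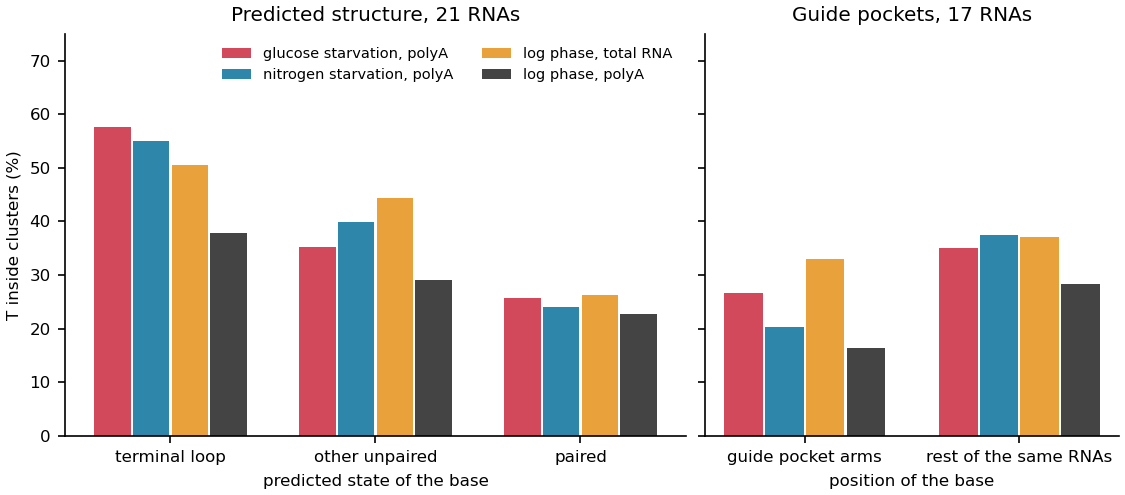
Percent of T inside clusters (y axis) by predicted state of the base in 21 RNAs (left) and in guide pocket arms against the rest of the same 17 RNAs (right), with 1 bar per list. With the T of all RNAs pooled, terminal loops stand highest in all 4 lists, between 37.8% and 57.7%, and pocket arms stand below the rest in all 4.

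The T of the guide pockets were covered less than the other T of the same RNAs. The annotation names 47 targets for the 27 RNAs. Of these, 39 could be searched, and a pocket was found for 21 (53.8%) in 17 RNAs. The same search, run on every U of 18S and 25S rRNA, passed in 2.52% of 31717 trials. In 15 of the 21 pockets the 3′ arm began 14 nt before the box.

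In the pocket arms, 26.6% of the 79 T were covered in the glucose list, against 35.1% of the other T of these RNAs. In the nitrogen list the values were 20.3% in the arms and 37.5% outside them. Light total RNA had 32.9% in the arms and 37.2% outside, and log-phase polyA RNA had 16.5% in the arms and 28.3% outside. Counted over all bases, the glucose list had 20.9% of the arms and 32.9% of the rest, and the nitrogen list had 26.0% of the arms and 38.0% of the rest. Log-phase polyA RNA had 15.3% of the arms and 26.3% of the rest. In light total RNA the order was not kept by this count, with 38.3% of the arms and 37.7% of the rest. Some part of the arms was covered for 9 of the 21 pockets in the glucose list, 12 in the nitrogen list, 16 in light total RNA and 9 in log-phase polyA RNA. With clusters of at least 10 nt alone, the share of arm T in light total RNA was 12.7%. The arms hold few T, and 2 pockets of SNR49 share bases, so the 4 differences rest on small counts.

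Single pockets differed widely. The SNR5 pocket for position 1124 of 25S rRNA, marked in the sequence above by TTACC and AAATGGCT, was covered at 8 of its 13 nt in the glucose list, 12 in the nitrogen list, 7 in light total RNA and 10 in log-phase polyA RNA. Its second pocket, for position 1004, had 3 of 12 nt covered in the glucose list, 0 in the nitrogen list, 4 in light total RNA and 0 in log-phase polyA RNA. The first pocket of SNR5 was thus covered in all 4 lists, while the second had covered bases after glucose starvation and in light total RNA.

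The SNR189 pocket for position 466 of 18S rRNA was covered over all 11 nt in both starvation lists, at 7 nt in light total RNA and at 2 nt in log-phase polyA RNA. The SNR81 pocket for position 42 of U2 had its 5′ arm, AAAAGAA, covered over all 7 nt in the nitrogen list and in light total RNA. That arm holds no T and lay inside a long cluster, at nt 5 to 57 in the nitrogen list and nt 7 to 59 in light total RNA. The same arm had no covered base in the glucose list or in log-phase polyA RNA. The 3′ arm, which holds the 2 T of this pocket, had no covered base in any list. The SNR35 pocket for position 1191 of 18S rRNA had 4 of 14 nt covered in the glucose list, 0 in the nitrogen list, 0 in light total RNA and 1 in log-phase polyA RNA. The SNR8 pocket for position 986 of 25S rRNA was free of clusters in all 4 lists.

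Light total RNA stood apart from the polyA lists at the 5′ end of the RNA, a region chosen for description after its values were seen. In light total RNA, 55.6% of the first 20 nt of the 27 RNAs lay in clusters, against 24.1% in log-phase polyA RNA. Over the remaining bases light total RNA had 36.2% and log-phase polyA RNA 24.7%. The glucose list had 27.8% of the first 20 nt and 32.3% of the rest, and the nitrogen list had 39.4% of the first 20 nt and 34.6% of the rest. At least 10 of the first 20 nt were covered in 9 RNAs in the glucose list, 10 in the nitrogen list, 16 in light total RNA and 8 in log-phase polyA RNA.

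Set RNA against RNA, light total RNA covered more of the first 20 nt than log-phase polyA RNA in 17 of 27 RNAs, as many in 4 and fewer in 6. In SNR84, a guide for 25S rRNA, all 20 nt were covered in light total RNA, against 0 in log-phase polyA RNA. In light total RNA SNR44 had 17 of the 20 covered, SNR42 had 18 and SNR11 had 16, against 0 for each in log-phase polyA RNA. SNR3 went the other way, with 0 in light total RNA against 10 in log-phase polyA RNA. The C/D box guides, the methylation guides of yeast, had 28.3% of their first 20 nt covered in light total RNA and 23% in log-phase polyA RNA (43 RNAs). No test of the difference between the classes was made.

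The 10 nt after the H box, also chosen after their values were seen, separated log-phase polyA RNA from the other lists. They were covered at 31.9% in the glucose list, 33.8% in the nitrogen list, 41.0% in light total RNA and 10.0% in log-phase polyA RNA (21 RNAs). With the H box nearest the middle the values were 36.2% in the glucose list, 38.1% in the nitrogen list, 44.3% in light total RNA and 14.8% in log-phase polyA RNA.

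Near the 3′ end the cover was high in every list from 40 to 31 nt before the tail box. Of the bases 31 to 40 nt before the tail box, in 23 RNAs, 50.0% were covered in the glucose list, 48.3% in the nitrogen list, 45.2% in light total RNA and 47.4% in log-phase polyA RNA. The next window upstream, 41 to 50 nt before the box, had 18.3% in the glucose list, 26.5% in the nitrogen list, 34.8% in light total RNA and 16.1% in log-phase polyA RNA. At 51 to 60 nt the cover was higher again, with 35.7% in the glucose list and 46.1% in the nitrogen list. Light total RNA had 39.6% there and log-phase polyA RNA 23.5%. Nearer the box, at 30 to 21 nt, the glucose list had 40.0%, the nitrogen list 49.6%, light total RNA 33.5% and log-phase polyA RNA 39.6%. The nitrogen list was thus highest in that window. At 20 to 11 nt the glucose list had 26.1%, the nitrogen list 32.6%, light total RNA 43.5% and log-phase polyA RNA 33.5%, so that light total RNA had a second high window there. The 10 nt next to the box had 17% in the glucose list, 26.5% in the nitrogen list, 34.3% in light total RNA and 21.7% in log-phase polyA RNA.

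**Figure D4:**
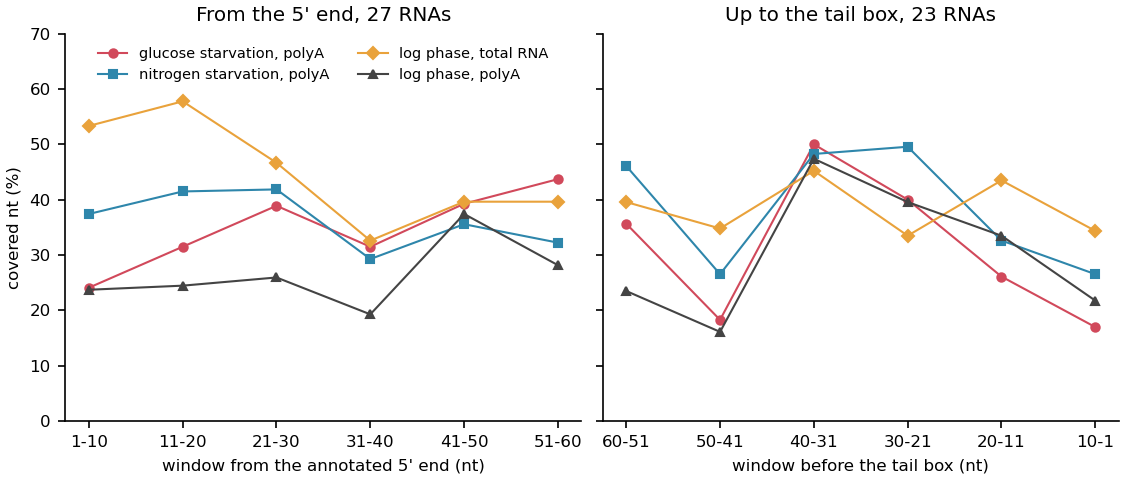
Covered bases (y axis, percent of nt) in windows of 10 nt from the annotated 5′ end in 27 RNAs (left) and up to the tail box in 23 RNAs (right), with 1 line per list. At the 5′ end the light total line lies at 53.3% and 57.8% in the first pair of windows, above the other lists, and all 4 lines meet between 45.2% and 50.0% at 40 to 31 nt before the tail box.

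Merging clusters of different lists that overlapped by at least 1 nt gave 248 sites on the 27 RNAs. Of these, 90 (36.3%) were found in all 4 light lists, 57 in 3, 41 in 2 and 60 in a single list. The same shares over all genes are not given here, so these counts do not show a trait of the H/ACA guides. Every RNA had at least 1 site found in all 4. With clusters of at least 10 nt alone, 51 sites were found in all 4. Of the clusters on the 27 RNAs, 54.5% in the glucose list and 52.9% in the nitrogen list lay in the 90 sites. The share was 46.5% in light total RNA and 69.0% in log-phase polyA RNA.

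Base by base the agreement was narrower. Only 783 nt (11.1%) were covered in all 4 lists, while 58.8% were covered in at least 1. The common bases held 37.3% T, 30.4% A, 19.3% C and 13% G, against 35.2% T, 27.8% A, 17.7% C and 19.3% G in the whole RNAs. The widest common core, 19 nt, lay at nt 355 to 396 of SNR86, the longest of the RNAs at 1004 nt. The next, 18 nt, was the one described above in SNR3. SNR11 had 13 common nt in the site at nt 180 to 213, printed above as the run TTTCATAAAGAAA, and SNR191 had 13 in the site at nt 111 to 133, printed as CCGTTCTGGGGAA. SNR81 had a site of 4 lists but no base common to them, and it was the only RNA with none. The site at nt 102 to 124 of SNR31 had no common base either.

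The most frequent pattern after that of all 4 lists was light total RNA alone, with 33 sites on 20 RNAs. Next came presence in glucose-starved, nitrogen-starved and light total RNA without log-phase polyA RNA, with 32 sites on 17 RNAs. SNR86 had 6 of these and SNR43 had 3. In SNR43, a guide for 25S and 5.8S rRNA, they lay at nt 50 to 67 across the end of hairpin 1 and the H box, at nt 93 to 106 and at nt 115 to 132. Sites found in log-phase polyA RNA alone numbered 9. The number of sites in a list moves with the size of the list, whose part in these counts was not tested. How often these patterns occur over all genes is not given either.

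The shared bases can be read beside the cover that each list had on the RNAs. Of the bases covered in the glucose list, 69.0% were covered in the nitrogen list too, which covered 35.0% of all bases. Of the bases covered in the nitrogen list, 63.0% were covered in the glucose list, which covered 31.9%. Of the light total bases, 39.5% were covered in log-phase polyA RNA, which covered 24.7%, and of the log-phase polyA bases, 60.2% were covered in light total RNA, which covered 37.6%.

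The comparison of glucose starvation with log phase asks how protein contacts on polyA-selected RNA differ after 2 h without sugar. The H/ACA guides were better represented after glucose starvation: their share of all clusters was 2.22 times that in log-phase polyA RNA (exact 95% interval 1.77 to 2.79). The covered length itself was greater in 20 of 27 RNAs, although the whole glucose list covered only 0.575 times as many bases as the log-phase list. It was smaller in SNR5, SNR8, SNR31, SNR32, SNR37, SNR83 and SNR191. In log2 ratios of covered length per 100000 clustered nt, with 20 nt added and the median of all 5967 genes set to 0, all 27 RNAs lay above the median gene. Their median was 0.67, and the middle quartiles of all genes ran between -0.40 and 0.39. On this scale an RNA with equal cover in both lists also lies above 0, because the glucose list is the smaller. The RNAs with less cover, named above, lay above the median gene too, so a value above 0 is not a gain in covered length.

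Being at least 2-fold higher, with at least 2 clusters in either list, was reached by 9 of the 27 RNAs, against 4.01% of all genes. None was at least 2-fold lower, against 6.33% of all genes. The 9 were SNR36, SNR33, SNR43, SNR42, SNR85, SNR81, SNR86, SNR35 and SNR80. SNR36, a guide for position 1187 of 18S rRNA, had 85 nt covered in the glucose list against 21 nt in log-phase polyA RNA (5 and 2 clusters, log2 ratio 1.88). SNR33, for position 1042 of 25S rRNA, had 88 nt against 35 nt (6 and 3 clusters, 1.50). SNR43 had 85 nt against 39 nt (7 and 3 clusters, 1.36). At the low end, SNR83 had 50 nt against 71 nt (0.15), SNR37 had 90 nt against 113 nt (0.25) and SNR32 had 54 nt against 69 nt (0.26).

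For a single RNA the counts are small. The interval of the ratio of cluster counts lay above 1 for SNR42, SNR84 and SNR86, and it included 1 for the other 24. The share of all genes whose interval lies above 1 is not given, so this count does not show a trait of the H/ACA guides. SNR86, SNR84 and SNR42 also held the most clusters of the guides in the glucose list, at 23, 11 and 10. The part of cluster number in passing was not tested. SNR86 had 23 clusters in the glucose list against 18 in log-phase polyA RNA, a ratio per list size of 2.34 (1.21 to 4.60). The C/D box guides had a median log2 ratio of 0.50 with 8 of 43 at least 2-fold higher, and their share of clusters was 1.87 times that of log phase (1.40 to 2.49). The intervals of both classes overlap.

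Nitrogen starvation gave similar values, but it was set against the same log-phase list, so that both comparisons share whatever is particular to that list. The guides' share of clusters was 2.02 times that in log-phase polyA RNA (1.62 to 2.53). Covered length was greater in 23 of 27 RNAs and smaller in SNR5, SNR8, SNR82 and SNR191, with the nitrogen list covering 0.663 times as many bases in all. All 27 lay above the median gene, with a median log2 ratio of 0.79. Being at least 2-fold higher was reached by 9 RNAs, against 4.58% of all genes, and none was at least 2-fold lower, against 4.95%.

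SNR81 stood first, with 87 nt in the nitrogen list against 21 nt in log-phase polyA RNA (3 and 2 clusters, 1.81). SNR85, for position 1181 of 18S rRNA, had 60 nt against 19 nt (4 and 2 clusters, 1.46). SNR46, for position 2865 of 25S rRNA, had 106 nt against 46 nt (7 and 4 clusters, 1.36). The other 6 were SNR36 (1.35), SNR189 (1.33), SNR161 (1.25), SNR86 (1.20), SNR43 (1.00) and SNR80 (1.00). SNR8 was lowest, with 34 nt against 44 nt (0.18), followed by SNR82 (105 nt against 113 nt, 0.34) and SNR5 (78 nt against 84 nt, 0.34). The count interval lay above 1 for SNR86 alone, with 23 clusters against 18, the most of any of the guides in both lists. The share of all genes passing by this interval is not given here either. The C/D box guides had a median of 0.53, with 6 of 43 at least 2-fold higher.

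**Figure D5:**
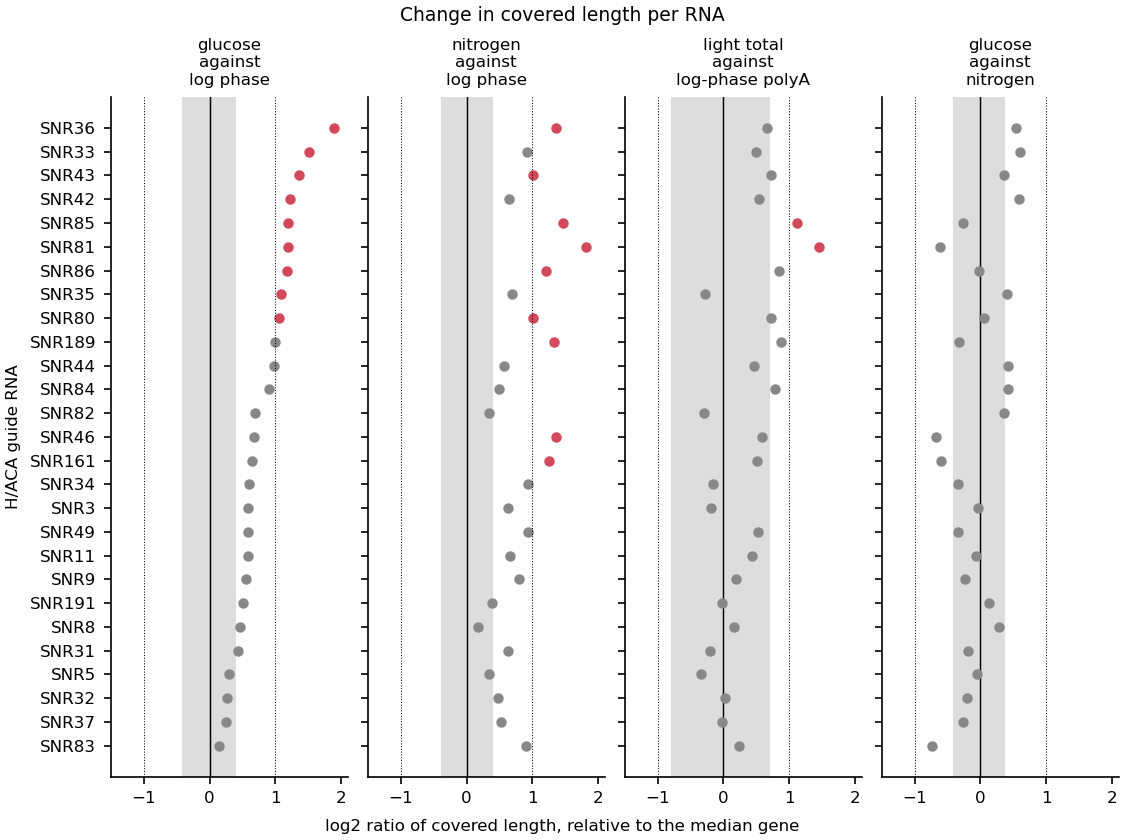
Log2 ratio of covered length for each of the 27 H/ACA guide RNAs (x axis, relative to the median gene) in 4 comparisons, with RNAs at least 2-fold from the median gene in red, dotted lines at 2-fold and the span between the quartiles of all genes in grey. In both starvation panels all points lie right of 0, with medians of 0.67 and 0.79, while the panel of glucose against nitrogen starvation is spread about 0. Equal cover also lies right of 0 in both starvation panels, whose lists are smaller than the log-phase list.

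By target, the 6 guides of 18S rRNA alone had median log2 ratios against log phase of 0.86 in the glucose list and 1.07 in the nitrogen list. The 15 guides of 25S rRNA alone had 0.59 in the glucose list and 0.63 in the nitrogen list. The 4 guides of both had 0.99 in the glucose list and 0.97 in the nitrogen list. SNR43, for 25S and 5.8S rRNA, had 1.36 in the glucose list and 1.00 in the nitrogen list. SNR81, for 25S rRNA and U2, had 1.19 in the glucose list and 1.81 in the nitrogen list. The groups are small, and the difference between targets was not tested. In log-phase polyA RNA itself, 23.8% of the bases of the 18S guides and 26.5% of those of the 25S guides were covered.

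The starvation lists differed little from each other on these RNAs. The guides' share of clusters in the glucose list was 1.10 times that in the nitrogen list (0.889 to 1.36), and the median log2 ratio was -0.05, with 11 of 27 above the median gene. None was at least 2-fold higher, against 4.57% of all genes, or lower, against 5.6%, so a count of 0 among 27 is near these shares. SNR33 (88 nt after glucose starvation and 57 nt after nitrogen starvation, 0.60), SNR42 (165 nt and 113 nt, 0.58) and SNR36 (85 nt and 58 nt, 0.54) were highest. SNR83 (50 nt and 106 nt, -0.74), SNR46 (53 nt and 106 nt, -0.68) and SNR81 (45 nt and 87 nt, -0.61) were lowest. For these RNAs every interval of the count ratio included 1.

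Light total RNA was compared with log-phase polyA RNA of the same fraction. Whether the guide RNAs held by oligo(dT) beads carried a tail was not tested. The guides' share of clusters in light total RNA was 1.74 times that in polyA RNA (1.40 to 2.16). Covered length was greater in 21 of 27 RNAs and smaller in SNR3, SNR5, SNR31, SNR34, SNR35 and SNR82, and the total list covered 1.15 times as many bases in all. The median log2 ratio was 0.46, with 19 of 27 above the median gene. SNR81 and SNR85 were at least 2-fold higher, 2 of 27 RNAs against 15.8% of all genes, and none was at least 2-fold lower, against 19.5%. These shares are below those of all genes. Counting clusters in place of covered length gave 9 RNAs at least 2-fold higher and a median of 0.80, and clusters of at least 10 nt alone gave a median of 0.060, so this comparison depends on the measure.

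SNR81 had 101 nt covered in light total RNA against 21 nt in polyA RNA (5 and 2 clusters, 1.45). SNR85 had 71 nt against 19 nt (5 and 2 clusters, 1.11), and SNR189 had 93 nt against 37 nt (7 and 4 clusters, 0.88). SNR5 was lowest, with 69 nt against 84 nt (-0.33), then SNR82 with 97 nt against 113 nt (-0.30) and SNR35 with 59 nt against 69 nt (-0.28). Clusters numbered 17 in light total RNA against 7 in polyA RNA on SNR84, where the count interval lay above 1, as it did for no other member. For this comparison too, the share of all genes passing by the interval is not given. The C/D box guides had a median of 0.15, with 3 of 43 at least 2-fold higher. PolyA selection, the size of the lists and base composition differ together between these lists and cannot be told apart.

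Clusters outside the mature ends may belong to longer forms of these RNAs or to neighbouring transcripts. Within 100 nt downstream, clear of annotated genes of that strand, there were 41 clusters in the glucose list, 22 in the nitrogen list, 35 in light total RNA and 41 in log-phase polyA RNA. They followed 21 of the 27 RNAs in the glucose list, 14 in the nitrogen list, 17 in light total RNA and 21 in log-phase polyA RNA. They covered 20.4% of 2500 free nt in the glucose list, 10.5% in the nitrogen list, 17.6% in light total RNA and 19.2% in log-phase polyA RNA. The equal counts of 41 came from lists of 33345 clusters for glucose starvation and 61035 for log phase. Scaled to the size of each list, the downstream counts stood in the proportion 12.3 (glucose) to 6.72 (log-phase polyA). On that scale the nitrogen list had 5.65 and light total RNA 6.79. The glucose list was thus highest downstream by this measure. Within 100 nt upstream there were 13 clusters in the glucose list, 20 in the nitrogen list, 14 in light total RNA and 23 in log-phase polyA RNA. On the same scale these were 3.90 (glucose), 5.14 (nitrogen), 2.71 (light total) and 3.77 (log-phase polyA). The nitrogen list thus had the fewest clusters downstream although it had more than the glucose list on the RNAs themselves. SNR44 and SNR191 lie in introns and had no free flank.

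After SNR33 there were 4 clusters in the glucose list, 3 in the nitrogen list, 4 in light total RNA and 4 in log-phase polyA RNA. After SNR34 there were 2 in the nitrogen list and 3 in each of the other lists. In the stretches of these flanks printed above, ATTTGCAAAACTTTTTATTTTATGT begins 2 nt after the end of SNR33, and CATATATTTACGTACTGTC begins 3 nt after the end of SNR34. Clusters that crossed the annotated 3′ end numbered 5 in the glucose list, 5 in the nitrogen list, 5 in light total RNA and 7 in log-phase polyA RNA. Those that crossed the 5′ end numbered 8 in the glucose list, 7 in the nitrogen list, 11 in light total RNA and 6 in log-phase polyA RNA. Within 100 nt downstream of the C/D box guides there were 42 in the glucose list, 29 in the nitrogen list, 35 in light total RNA and 59 in log-phase polyA RNA. Scaled to list size as above, these were 12.6 (glucose), 7.45 (nitrogen), 6.79 (light total) and 9.67 (log-phase polyA). A cluster cannot be assigned to a precursor rather than to the untranslated part of a neighbouring mRNA, which the annotation does not give.

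Short motifs known from binding of the termination factors Nab3 (TCTT, CTTG) and Nrd1 (GTAG, GTAA) were counted on the RNA strand in clusters lying wholly within these downstream flanks. Windows of equal length with a T in the same flanks give the comparison, and TCTTG holds both Nab3 motifs. TCTT was present in 12.5% of 40 clusters in the glucose list (14.8% of windows), 15.0% of 20 in the nitrogen list (14% of windows), 23.3% of 30 in light total RNA (14.4%) and 10.3% of 39 in log-phase polyA RNA (15.2%). CTTG was present in 7.50% in the glucose list (13.1% of windows), in none in the nitrogen list (11.5%), in 23.3% in light total RNA (11.8%) and in 5.13% in log-phase polyA RNA (12.7%). GTAG was in 3 of 30 clusters of light total RNA and in at most 2 of any polyA list, and GTAA was in at most 1 of any list. In these flanks light total RNA alone had both Nab3 motifs in a larger share of clusters than of windows, on 7 clusters each. On the RNAs themselves CTTG was in a larger share of clusters than of windows in all 4 lists, at 3.07% in the glucose list (1.95% of windows), 3.43% in the nitrogen list (2.01%), 2.03% in light total RNA (1.86%) and 5.30% in log-phase polyA RNA (1.55%), on 4 to 7 clusters a list. TCTT was there in 8.59% in the glucose list (9.61% of windows), 9.71% in the nitrogen list (9.67%), 9.64% in light total RNA (8.61%) and 9.09% in log-phase polyA RNA (9.28%). The Nrd1 motif GTAA was also above its windows in all 4 lists, on 5 to 7 clusters a list. It was in 3.68% in the glucose list (2.94% of windows) and 4.00% in the nitrogen list (2.89%). Light total RNA had 3.55% (2.76%) and log-phase polyA RNA 3.79% (2.90%). GTAG was above its windows in the glucose list alone, at 5.52% (3.85%).

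The proteins of the pathway were examined through the clusters on their mRNAs. Of 22 genes for H/ACA proteins, assembly factors, snoRNA 3′ end formation, the nuclear exosome and its polymerases, and stand-alone pseudouridine synthases, none was 2-fold higher or lower in either starvation list, with medians of 0.01 after glucose starvation and 0.08 after nitrogen starvation. Over all genes, 4.01% were higher and 6.33% lower after glucose starvation, and 4.58% were higher and 4.95% lower after nitrogen starvation, so a count of 0 among 22 is near these shares. CBF5, the synthase of these particles, had 7 clusters in either starvation list, against 12 in log phase (log2 ratio -0.01 for glucose and -0.51 for nitrogen). GAR1, which encodes a core protein of the particle, had 4 after glucose starvation and 5 after nitrogen starvation, against 3 in log phase (0.90 and 0.57). NAB3, whose protein acts in ending snoRNA transcription, had 6 after glucose starvation and 7 after nitrogen starvation, against 15 in log phase (-0.93 and -0.83).

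In light total RNA against log-phase polyA RNA, 2 of the 22 were at least 2-fold higher, against 15.8% of all genes, and 5 lower, against 19.5%. These counts are near or below the shares over all genes and set the list apart in neither direction. NAB2, a nuclear protein that binds polyA tails, had 20 clusters in light total RNA against 4 in polyA RNA (1.52), and PUS4, which modifies tRNA, had 2 against 1 (1.06). The 5 lower were NAF1 (2 against 6, -1.49), PCF11 (4 against 13, -1.02), RNT1 (0 against 4), PAP2 (3 against 8, -1.01) and MTR4 (2 against 8, -1.48). Among the H/ACA RNAs of rRNA processing, SNR10 was at least 2-fold higher in both starvation lists, with 74 nt covered after glucose starvation and 115 nt after nitrogen starvation against 39 nt in log phase (1.20 and 1.62). SNR30 had 232 nt after glucose starvation and 212 nt after nitrogen starvation against 182 nt in log phase (0.85 and 0.63).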

How the data were processed

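The 5 lists of clusters, 1 per group, each pool 2 replicates. Per the labels and the submitters' processing notes, reads were mapped to R64 with Bowtie 0.12.7. Not given in the sources used here are the cluster caller, its thresholds and the handling of multiply mapping reads. What the authors deposited is the chromosome, start, end and strand of each cluster, with no count or signal, and starts were changed from 0-based to 1-based. Clusters were assigned to the RefSeq R64 annotation by at least 1 nt of overlap on the same strand. Covered length per 100000 clustered nt was compared for 6477 genes after adding 20 nt. mRNAs were taken with 100 nt before and 150 nt after them, without bases of structural RNAs. The H box was the ANANNA that gave the lowest summed folding energy of both sides (at least 40 nt each). The tail box was the last ACA, otherwise ATA, ending within 10 nt of the 3′ end. Pocket arms paired over at least 4 nt each and 10 in all, the 3′ arm starting 13 to 16 nt before a box. Folding used RNAfold 2.7.2, copies were searched with BLAST+ 2.17.0, and other steps used Python 3.11.15, NumPy 2.4.6 and SciPy 1.17.1. The scripts were tested on simulated data. Members and lists were chosen with earlier results of these data known, and the windows along the RNA, the terminal loops as a class of their own and the motif counts were chosen after seeing these values. RNAs were named as the highest and lowest 3 by log2 ratio in each comparison, the 5 largest and 5 smallest covered shares in light total RNA, and those with shared sites or covered pockets. Since no value was available per replicate, no test was made.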

Additional observations from a re-analysis of the deposited data

Results flagged for a closer look

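Clusters on the strand opposite to the 27 RNAs were not part of any comparison. There were 6 on 5 RNAs in the nitrogen list, 9 on 5 RNAs in light total RNA and 12 on 6 RNAs in log-phase polyA RNA. Each count is past 3, the limit used above for a count of 0, which is not a background rate. The rate opposite other genes is not given, so whether these counts are unusual was not tested. The glucose list had 1. SNR11 held 2 of them in the nitrogen list, 4 in light total RNA and 5 in log-phase polyA RNA. The sense strand held 187 clusters in the nitrogen list, 213 in light total RNA and 145 in log-phase polyA RNA.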

How the results depend on the processing

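No paired analysis was possible because each list pools both replicates. For the same reason, leaving out a replicate was not run. Of all alternative values, 157 stayed close to the reported one (a count within 1.5 times, a share inside its Wilson interval, a median log2 ratio within the counting error of the ratio of shares), and 37 moved. No median log2 ratio changed sign. The first 20 nt and the 10 nt after the H box were chosen as results after seeing the data. So were a scaled added length, AAA as a tail box, RNAs up to 300 nt, the middle H box for the 10 nt after it, and clusters of at least 10 nt for pockets and the first 20 nt. In the comparison of light total and log-phase polyA RNA, cluster counts in place of covered length gave 9 RNAs at least 2-fold higher and a median of 0.80. Clusters of at least 10 nt gave a median of 0.060 there and 1 RNA 2-fold lower.

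Clusters of at least 10 nt covered 28.2% of the RNAs in the glucose list, 30.2% in the nitrogen list, 30.4% in light total RNA and 20.2% in log-phase polyA RNA. They covered T at 29.0% (hairpin 1), 26.5% (hairpin 2), 33.2% (unpaired) and 21.9% (paired) in the glucose list, and at 27.6%, 27.3%, 37.1% and 18.9% of the same classes in the nitrogen list. In light total RNA they covered 28.6% of T in hairpin 1, 24.8% in hairpin 2, 34.8% of unpaired T and 19.1% of paired T. In log-phase polyA RNA they covered 21.8% of T in hairpin 1, 20.7% in hairpin 2, 23.6% of unpaired T and 18.3% of paired T. They covered 12.7% of pocket T in light total RNA, and of the first 20 nt 34.4% in the nitrogen list and 50.9% in light total RNA. They left 51 sites in all 4 lists. In each case the shorter clusters were left out by construction. With the H box nearest the middle, 57.1% of its T were covered in the glucose list and 47.6% in log-phase polyA RNA, and the cause was not tested. The interval of a share of 21 T is wide. In RNAs up to 300 nt, hairpin 2 had 36.4% of T covered in the glucose list and 37.1% in the nitrogen list. Flanks of 50 nt, being shorter, held 25 clusters downstream in the glucose list, 10 in the nitrogen list, 17 in light total RNA and 21 in log-phase polyA RNA, and 8 upstream in the glucose list and 8 in light total RNA. In the nitrogen list they held more upstream (14) than downstream (10), the other order from 100 nt.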
